A study of Mus musculus with 8 samples.

Results

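The genes examined were fibronectin (Fn1), tenascin C (Tnc) and 8 further genes for secreted proteins of the extracellular matrix: periostin (Postn), the thrombospondins Thbs1 and Thbs2, Sparc, Ctgf (now Ccn2), Cyr61 (now Ccn1), osteopontin (Spp1) and Tgfbi. They were chosen by name, and every array probe with one of these names or a listed synonym was kept. This gave 10 genes of 21299 named genes on the array, read by 18 probes at 36 spots. All 18 probes passed the signal filter, and 16 of them were well above background on all 8 arrays.

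The samples were RNA of dorsal skin from hairless male mice of strain SKH-1, aged 19 weeks, whose backs had been exposed to UVB for 10 weeks. In the enalapril group, 1% w/v enalapril maleate in 30% ethanol was put on the skin 5 times a week, beginning 1 week after irradiation ended and lasting 2 weeks. The vehicle group received the 30% ethanol alone on the same schedule, so both groups carried the UVB exposure and the ethanol, and there was no unexposed group among these arrays. Enalapril is a prodrug of an inhibitor of angiotensin-converting enzyme. Each group had 4 arrays, which the labels call biological replicates without naming the animal, and the series text speaks of 6 mice per group and of treatments of 2 or 6 weeks.

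Fibronectin and the tenascins are large multidomain glycoproteins that cells assemble into or deposit on the matrix, and both are known to increase in healing skin. Tenascin C and most of the other proteins are matricellular: they are secreted into the matrix, but act there more by binding cell surface receptors, growth factors and collagen than as load-bearing fibres. Integrins are their main receptors. Several of the genes, Ctgf and Cyr61 above all, are known targets of the transcription co-activator YAP, and TGF-beta is a known inducer of most of them.

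Levels are given as log2 of the processed spot intensity minus the 75th percentile of its array, so 0 stands for that percentile. A level of one probe is not comparable with that of another probe, and probes of a gene are numbered by falling mean signal only to name them. Differences are enalapril minus vehicle, with the standard error of limma's fit over all probes, and a probe was called at an adjusted p under 0.05 (Benjamini-Hochberg over 28580 tested probes). All enalapril arrays lay on one slide and all vehicle arrays on another, so group and slide cannot be told apart. Enalapril replicate 4 stood apart from its group: its root mean square distance to the other arrays of the group was 0.685, against 0.482 to 0.543 for the other enalapril arrays and 0.401 to 0.432 for the vehicle arrays. The skin markers were present, with 8 of 8 keratinocyte genes and 8 of 8 fibroblast genes well above background on every array. Of 8 genes of the osteoblast and cartilage lineage, listed as ones that skin should lack, 5 were also well above background on all 8 arrays and 1 of them, Sost, was called lower, so detection alone does not tell tissues apart here. Of all tested probes, 2979 were called, 36.6% of them higher in enalapril skin, a share that was 46.6% with quantile normalization and 4.97% with the uncentred series matrix values.

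The matrix glycoproteins fibronectin and tenascin C rose in enalapril skin at their brightest probe, by 1.44-fold and 1.63-fold. Of the 18 member probes, 2 were called higher, beside 3.82% of all tested probes, and 0 were called lower, beside 6.61%. At an unadjusted p under 0.05 stood 6 member probes, and 29.4% of all tested probes. For 3 probes (Fn1 probe 1, Tnc probe 1 and Postn probe 1) every enalapril array was above every vehicle array, as was so for 7.12% of all probes. The change was positive for 13 probes and negative for 5, with a median of 0.32 log2 against −0.05 over all tested probes. Taking the brightest probe of each gene, the median was 0.35 over the 10 members and −0.08 over all genes, of which 3.57% were called higher and 7.99% lower.

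**Figure D1:**
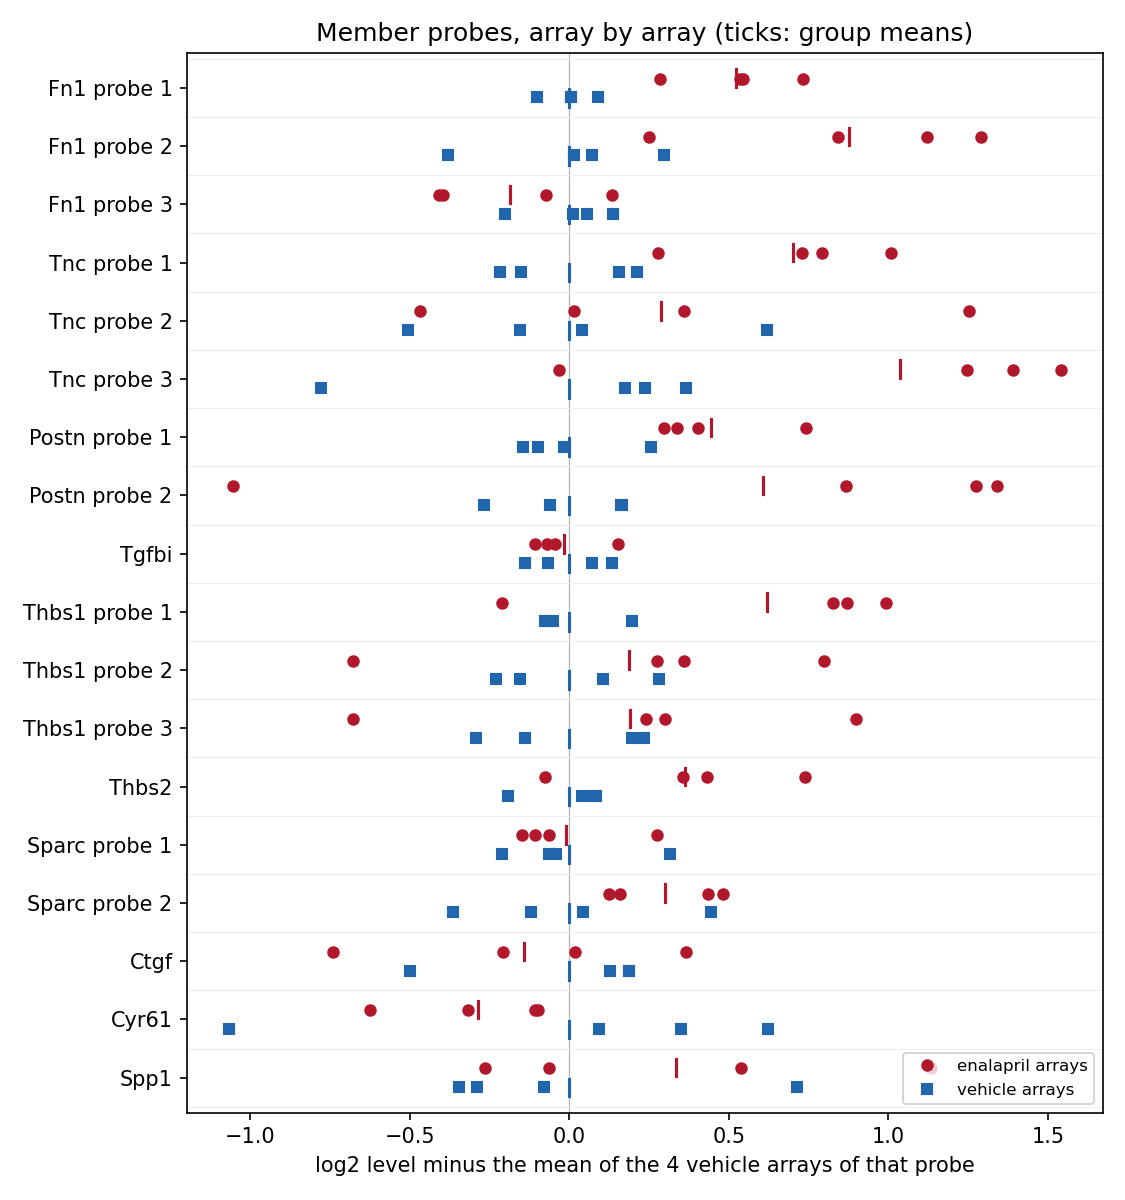
Log2 level of each member probe on each array, minus the mean of the 4 vehicle arrays of that probe (circles, enalapril; squares, vehicle; ticks, group means). Only for Fn1 probe 1, Tnc probe 1 and Postn probe 1 do all circles lie to the right of all squares, and enalapril replicate 4 is the left-hand circle for Tnc probe 3, Postn probe 2 and the Thbs1 probes.

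Fibronectin, the glycoprotein that cells pull into fibrils through integrins, was read by 3 probes annotated to one transcript. Probe 1 (A_51_P100856), printed at 10 spots, had levels of 2.00, 2.26, 2.25 and 2.45 in enalapril replicates 1 to 4, against 1.72, 1.61, 1.72 and 1.81 in vehicle replicates 1 to 4. The groups did not overlap, and replicate 4 was the highest in both. The difference was 0.52 ± 0.12 log2 (SE, n = 4 arrays each, limma adjusted p = 0.031), and 0.45 ± 0.11 without enalapril replicate 4 (adjusted p = 0.021). Leaving out 1 array at a time kept it between 0.45 and 0.60, but the adjusted p was past 0.05, up to 0.084, without any 1 vehicle array or without enalapril replicate 2 or 3. It also missed the threshold with median centring (0.49, adjusted p = 0.069), with no signal filter (adjusted p = 0.058) and with replicate number as a block (adjusted p = 0.076). Further from the threshold were the series matrix values (0.16, adjusted p = 0.74) and centring on E1A control spots (0.45, adjusted p = 0.33). So was normexp background correction (0.39, adjusted p = 0.49, or 0.44 and 0.27 with local backgrounds above 10 times the spot replaced).

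Because Fn1 probe 1 was repeated at 10 spots on every array, the noise between spots of one hybridisation could be read. It does not cover labelling or hybridisation, which enter the spread between arrays together with the samples. Single spots gave changes of 0.49 to 0.58 log2, with a median of 0.52. The SD between spots of an array was 0.029 and that between arrays of a group 0.14, and none of the spots was flagged. Spot by spot, the enalapril arrays ran from 1.97 to 2.51 and the vehicle arrays from 1.57 to 1.87. The groups therefore did not overlap at any single spot, and the 10 spots of an array count as 1 value in the test.

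**Figure D2:**
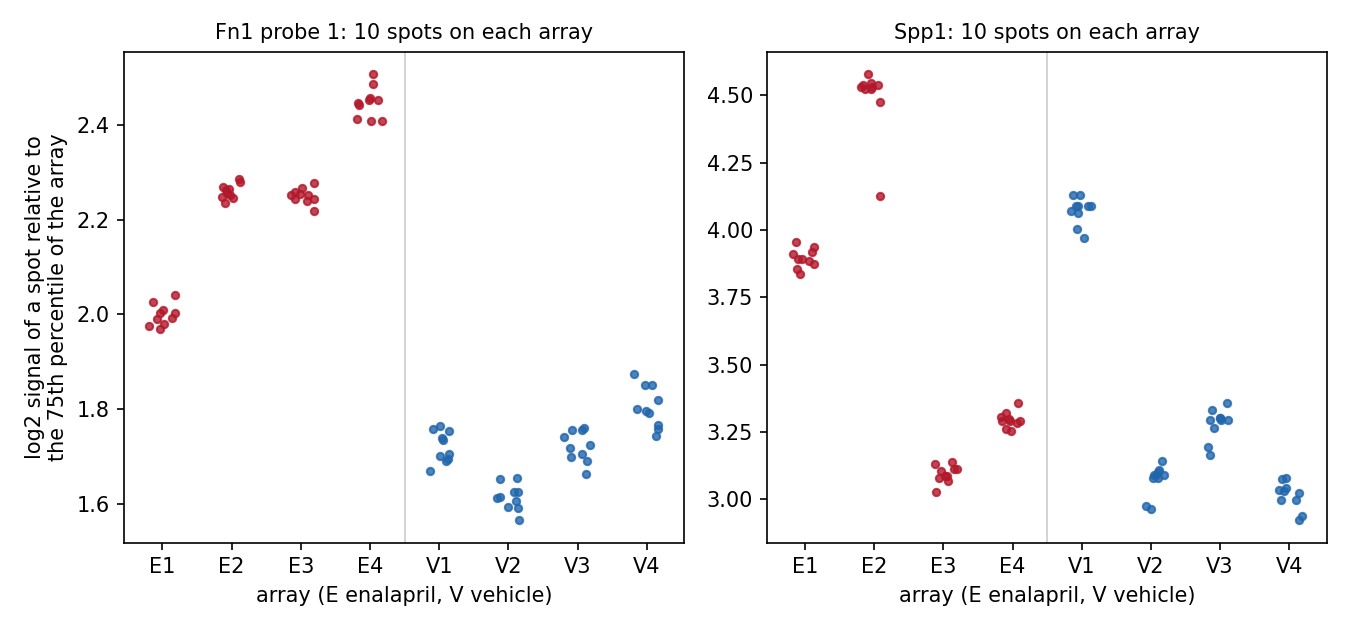
Every spot of Fn1 probe 1 (left) and of Spp1 (right) on the 8 arrays, as log2 signal relative to the array's 75th percentile (E1 to E4, enalapril; V1 to V4, vehicle). For Fn1 the lowest enalapril spot (1.97) is above the highest vehicle spot (1.87), while for Spp1 the groups overlap, with E1, E2 and V1 above the other 5 arrays.

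The other Fn1 probes differed in direction. Probe 2 (A_52_P11817) had −1.19, −0.60, −0.32 and −0.15 in enalapril skin and −1.37, −1.82, −1.15 and −1.43 in vehicle skin. Enalapril replicate 1 fell just inside the vehicle range and the other 3 lay above it, for a change of 0.88 ± 0.24 (adjusted p = 0.051, not called). Probe 3 (A_52_P299974) had −4.23, −4.21, −3.89 and −3.68 in enalapril skin and −3.68, −3.81, −4.02 and −3.76 in vehicle skin. Its groups overlapped and the change was −0.19 ± 0.15 (adjusted p = 0.44).

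Agreement between probes was tested on the difference of 2 probes within each array, where a scaling constant of the array cancels. The test was an exact permutation test over 70 splits of the 8 arrays, two-sided, whose smallest possible p is 0.0286, with adjustment over 11 pairs of probes of the same gene. The gap between Fn1 probes 1 and 3 was 6.22, 6.47, 6.14 and 6.13 log2 in enalapril arrays and 5.40, 5.42, 5.74 and 5.57 in vehicle arrays. These did not overlap, and the changes of the probes differed by 0.71 log2 (exact p = 0.0286, adjusted p = 0.10). Probes 2 and 3 differed by 1.06 log2 (exact p = 0.0286, adjusted p = 0.10), also without overlap. Probes 1 and 2 differed by −0.35 (exact p = 0.11, adjusted p = 0.21). Unequal changes of Fn1 probes thus reached the smallest p the design allows for both pairs with probe 3, but 0 of the 11 pairs passed after adjustment. Even a pair at that smallest p had an adjusted p of 0.10 here. The adjusted test therefore cannot show that the probes of a gene agreed. Local backgrounds exceeded 2 times the spot at 6 spots, and 10 times at 3 spots, the latter on enalapril replicate 3. With normexp background correction, probe 3 turned to 0.52. Its difference from probe 1 became −0.14 (exact p = 1), and that of probes 2 and 3 became 0.21 (exact p = 0.80). With local backgrounds above 10 times the spot replaced these differences were 0.049 (exact p = 1) and 0.34 (exact p = 0.49). With all 6 replaced, a setting chosen after seeing the data, they were 0.56 (exact p = 0.0286) and 0.74 (exact p = 0.057).

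**Figure D3:**
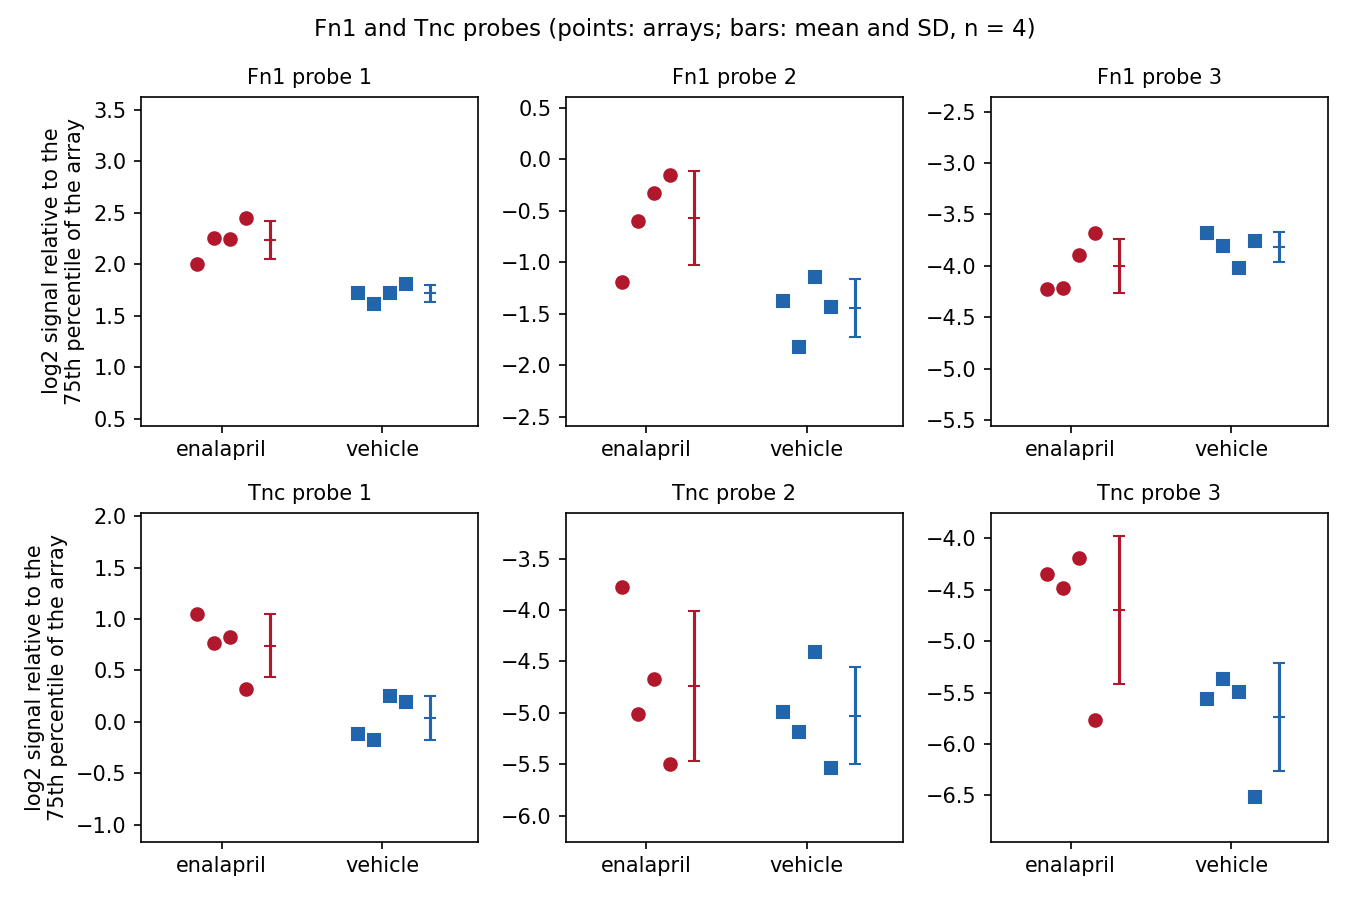
Log2 signal relative to the array's 75th percentile for the 3 Fn1 probes (top) and the 3 Tnc probes (bottom), enalapril left and vehicle right in each panel (points, arrays; bars, mean and SD, n = 4). All panels span the same range of log2 units, so differences can be compared: enalapril means are higher by 0.52 and 0.88 for Fn1 probes 1 and 2 and by 0.70, 0.29 and 1.04 for Tnc probes 1 to 3, and lower for Fn1 probe 3.

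Tenascin C is an adhesion-modulating hexameric glycoprotein that is scarce in resting adult skin and abundant in wounds. Probe 1 (A_51_P291438) had levels of 1.05, 0.77, 0.83 and 0.32 in enalapril skin and −0.11, −0.18, 0.25 and 0.19 in vehicle skin. The groups did not overlap, although enalapril replicate 4 exceeded the highest vehicle array by little. The change was 0.70 ± 0.18 log2 (adjusted p = 0.041), and 0.84 ± 0.14 without enalapril replicate 4 (adjusted p = 0.0080). Without any one of the other 7 arrays the adjusted p lay between 0.055 and 0.10, with changes of 0.60 to 0.77. The call was also lost with no signal filter (adjusted p = 0.071) and with replicate number as a block (adjusted p = 0.10). The same held for the series matrix values (0.34, adjusted p = 0.48), E1A control centring (0.63, adjusted p = 0.21) and normexp (0.55, adjusted p = 0.43, or 0.58 and 0.24 with local backgrounds above 10 times the spot replaced).

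The remaining Tnc probes were dim. Probe 3 (A_51_P324992), which the array annotates to a cDNA clone rather than the reference transcript, had −4.34, −4.49, −4.19 and −5.77 in enalapril skin and −5.56, −5.37, −5.50 and −6.51 in vehicle skin. It was not well above background in vehicle replicate 4. Enalapril replicates 1 to 3 lay above all vehicle arrays and replicate 4 below 3 of them, with a change of 1.04 ± 0.38 (adjusted p = 0.11), and 1.39 ± 0.27 without enalapril replicate 4 (adjusted p = 0.011). The lowest value with 1 array left out was 0.78, without vehicle replicate 4, and the adjusted p ran up to 0.24. Probe 2 (A_52_P355169) had −3.78, −5.01, −4.67 and −5.50 in enalapril skin and −4.99, −5.18, −4.41 and −5.53 in vehicle skin, with overlapping groups and a change of 0.29 ± 0.37 (adjusted p = 0.64). All 3 probes had a positive change. The differences between their changes were 0.41 for probes 1 and 2 (exact permutation p = 0.29), −0.33 for probes 1 and 3 (p = 0.49) and −0.75 for probes 2 and 3 (p = 0.11). None of these passed, which does not show that the changes were equal. With the 6 local backgrounds above 2 times the spot replaced in normexp, the setting chosen after seeing the data, probes 1 and 2 differed by 0.45 (exact p = 0.0286). Averaged over its probes, Tnc changed by 0.68 ± 0.27 (adjusted p = 0.13) and Fn1 by 0.40 ± 0.15 (adjusted p = 0.11), neither past the threshold.

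The promoter of Tnc is shown because it is the called member for which a sequence was at hand (RefSeq, GRCm38.p6), with the capitals marking the match to a TATA box, TATAAA, found by the search of 4 short motifs on both strands. It covers the 250 bases before the more upstream of its annotated starts, at chr4:64047016-64047265 on the minus strand.
Tnc: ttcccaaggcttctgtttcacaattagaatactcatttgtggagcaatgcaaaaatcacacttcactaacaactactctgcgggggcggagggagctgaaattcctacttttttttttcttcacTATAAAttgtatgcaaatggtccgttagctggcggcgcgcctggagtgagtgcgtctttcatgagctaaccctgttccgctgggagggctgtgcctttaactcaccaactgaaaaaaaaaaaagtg
The match lies at −126 to −121 from that start and at −205 to −200 from the other, and whether it acts as a TATA box was not tested. This motif occurs in 12.4% of the 32851 promoter windows of the same length. It was found in 6 of the 10 windows that cover 7 of the member genes (not Fn1, Thbs1 or Ctgf), where the 2 overlapping Tnc windows hold the same match. Also found was CAGAC, a SMAD-binding element, in 7 of 10 windows against 42.2% of all. Among these is the Tnc window not shown, with a match on the reverse strand at −70 to −66 from its own start. The AP-1 motif TGANTCA was in 0 of the 10, against 6.75% of all windows.

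Periostin, a matricellular protein made by fibroblasts that binds integrins and aids collagen cross-linking, was read by 2 probes. Probe 1 (A_51_P489192) had 5.75, 5.30, 5.41 and 5.34 in enalapril skin and 4.86, 4.91, 4.99 and 5.26 in vehicle skin. The groups did not overlap, but vehicle replicate 4 came close to the lowest enalapril array, and the change of 0.45 ± 0.14 log2 did not pass the test (adjusted p = 0.075). Without enalapril replicate 4 it was 0.48 ± 0.15 (adjusted p = 0.048), the only fit with 1 array left out that passed. Over all such fits it ran from 0.35 to 0.53, with adjusted p up to 0.17. Probe 2 (A_51_P469817) carries a clone name that RefSeq lists as a synonym of Postn. It had −4.51, −4.58, −4.98 and −6.90 in enalapril skin and −5.69, −5.91, −6.12 and −5.68 in vehicle skin. Enalapril replicate 4, where the probe was not well above background, lay below all vehicle arrays and the other 3 enalapril arrays above them. The change was 0.61 ± 0.48 (adjusted p = 0.44), and 1.16 ± 0.16 without that array (adjusted p = 0.0055). Without 1 of the arrays in turn it ran from 0.36, without enalapril replicate 1, to 1.16 (adjusted p up to 0.69).

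Thbs1 encodes a thrombospondin that activates latent TGF-beta and binds CD36 and CD47. Its probe 1 (A_52_P363951) had 0.86, 0.81, 0.98 and −0.22 in enalapril skin and −0.08, −0.09, 0.18 and −0.06 in vehicle skin. Enalapril replicates 1 to 3 were above and replicate 4 was below all vehicle arrays, with a change of 0.62 ± 0.25 (adjusted p = 0.14, not called), and 0.90 ± 0.11 without enalapril replicate 4 (adjusted p = 0.0043). The lowest value with 1 array left out was 0.49, without enalapril replicate 3, and the adjusted p ran up to 0.30. The other probes, A_52_P337086 (probe 2) and A_52_P337092 (probe 3), were dim. Their mean levels were −3.60 and −3.87 in enalapril skin and −3.79 and −4.06 in vehicle skin. Each changed by 0.19 (SE 0.29 and 0.30, adjusted p = 0.70 and 0.72). Their changes differed from each other by −0.0014 log2 (exact permutation p = 1), and that of probe 1 exceeded them by 0.43 each (exact p = 0.0286 against probe 2 and 0.057 against probe 3, adjusted p = 0.10 and 0.16). On every array the gap between probes 1 and 2 was larger in enalapril skin, 3.98 to 4.33 log2, than in vehicle skin, 3.61 to 3.94.

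Thbs2, whose thrombospondin is known from collagen fibril assembly, had 3.35, 2.53, 3.04 and 2.97 in enalapril skin and 2.42, 2.65, 2.69 and 2.68 in vehicle skin. The groups overlapped through enalapril replicate 2, and the change of 0.36 ± 0.17 was not called (adjusted p = 0.19).

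Sparc, a collagen-binding glycoprotein, and Tgfbi, an integrin-binding protein named for its induction by TGF-beta, had groups that overlapped. Sparc probe 1 (A_52_P101852) ran from 6.35 to 6.77 in enalapril skin and from 6.28 to 6.81 in vehicle skin, with a change of −0.011 ± 0.15 (adjusted p = 0.97). Its probe 2 (A_51_P431087) ran from 5.79 to 6.15 in enalapril skin and from 5.30 to 6.11 in vehicle skin, for a change of 0.30 ± 0.18 (adjusted p = 0.30). Tgfbi had 5.56, 5.52, 5.59 and 5.78 in enalapril skin and 5.49, 5.77, 5.57 and 5.70 in vehicle skin, with a change of −0.018 ± 0.11 (adjusted p = 0.93). The values of both Sparc probes, Postn probe 1 and Tgfbi came on all 8 arrays from the low-sensitivity scan, scaled up by the scanner software, and 0 member spots were saturated. For Spp1 this scan was used on 1 array only, so its arrays mix both kinds of scan.

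**Figure D4:**
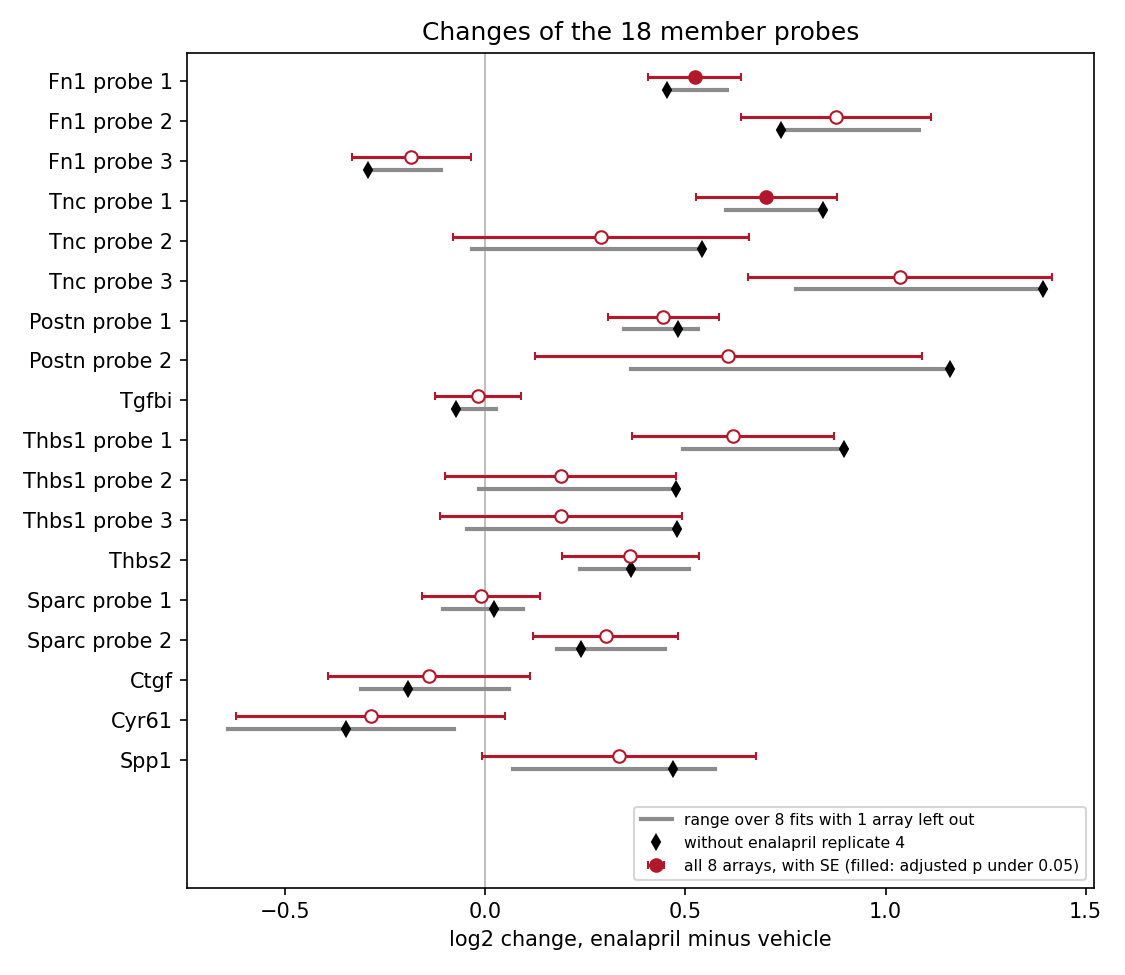
Log2 change of each member probe with its SE over all 8 arrays (circles, filled where the adjusted p was under 0.05), the range over the 8 fits with 1 array left out (grey bars) and the value without enalapril replicate 4 (diamonds). The filled circles are Fn1 probe 1 at 0.52 and Tnc probe 1 at 0.70, and the diamonds of Tnc probe 3, Postn probe 2 and the 3 Thbs1 probes lie at the high end of their bars.

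Ctgf and Cyr61 encode matricellular proteins of the CCN family and are textbook YAP targets. Ctgf had 3.58, 3.01, 2.47 and 3.23 in enalapril skin and 3.40, 2.71, 3.34 and 3.40 in vehicle skin, with a change of −0.14 ± 0.25 (adjusted p = 0.75). Cyr61 had 0.52, 0.21, 0.73 and 0.74 in enalapril skin and 1.46, −0.23, 1.18 and 0.93 in vehicle skin, with a change of −0.29 ± 0.34 (adjusted p = 0.61). That value was −0.64 without vehicle replicate 2 and −0.078 without vehicle replicate 1. The groups overlapped for both genes, and vehicle replicate 2 was the lowest of its group for both. The promoter of Cyr61 is shown because it alone among the 10 member windows held a TEAD motif, GGAATG or its reverse complement, through which YAP acts on DNA. It spans chr3:145649986-145650235 on the minus strand (RefSeq, GRCm38.p6), with the TEAD match and then a TATA box match in capitals.
Cyr61: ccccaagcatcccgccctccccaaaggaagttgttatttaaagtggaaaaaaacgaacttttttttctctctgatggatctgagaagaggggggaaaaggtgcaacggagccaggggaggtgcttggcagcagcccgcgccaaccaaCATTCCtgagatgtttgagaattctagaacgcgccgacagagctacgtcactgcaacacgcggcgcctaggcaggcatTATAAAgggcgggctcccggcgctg
The TEAD match lies at −103 to −98, on the reverse strand, and the TATA box match at −25 to −20. The TEAD motif occurs in 12.6% of all windows, so 1 of 10 is close to that share.

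Osteopontin (Spp1), an integrin- and CD44-binding phosphoprotein of macrophages and other cells, had 3.90, 4.49, 3.09 and 3.30 in enalapril skin and 4.07, 3.07, 3.28 and 3.01 in vehicle skin. High and low arrays occurred in both groups, and the change was 0.33 ± 0.34 (adjusted p = 0.55), or 0.069 without enalapril replicate 2 and 0.57 without vehicle replicate 1. Its probe was also printed at 10 spots, whose single changes ran from 0.30 to 0.38. The SD between spots of an array was 0.064 and that between arrays of a group 0.56. The largest SD between spots, 0.13, was in enalapril replicate 2, where spots ran from 4.13 to 4.58.

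Receptors, relatives, regulators and further targets were read from lists of related genes, with the brightest probe for each gene. Of 18 tested receptors of these proteins, 2 rose and 0 fell, beside 3.57% and 7.99% of all genes, with a median change of 0.22 log2. The integrin beta chain Itgb1, partner of most fibronectin-binding alpha chains, had 1.75, 1.49, 1.62 and 1.70 in enalapril skin and 1.25, 1.20, 1.26 and 1.20 in vehicle skin, without overlap, and rose by 0.42 ± 0.094 (adjusted p = 0.032). Its other tested probes gave 0.47 (adjusted p = 0.072) and −0.46 (adjusted p = 0.21). Lrp1, an endocytic receptor that clears thrombospondins, rose by 0.59 ± 0.16 (adjusted p = 0.048), with 0.22 at its other probe (adjusted p = 0.33). The integrin chains Itgav (0.34 ± 0.10, adjusted p = 0.065) and Itgb8 (0.34 ± 0.14, adjusted p = 0.16), partners in TGF-beta activation, did not pass. Both calls held without enalapril replicate 4 and were lost without any one of the other 7 arrays, with adjusted p up to 0.085 for Itgb1 and 0.11 for Lrp1.

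Among 24 tested of 30 other matricellular and related glycoproteins, 0 rose and 1 fell, beside 3.57% and 7.99% of all genes. The median was −0.043. The one called was Fbln1, fibulin 1, which binds fibronectin and fell by 0.43 ± 0.11 log2 (adjusted p = 0.044), with −0.32 at its other probe (adjusted p = 0.071). Its call, too, held without enalapril replicate 4 and was lost without each of the other 7 arrays (adjusted p up to 0.11). Ccn3, of the same CCN family as Ctgf and Cyr61, changed by 0.34 ± 0.11 (adjusted p = 0.075). Vitronectin (Vtn) changed by −0.62 ± 0.20 (adjusted p = 0.081) and the elastic fibre protein Efemp2 by −0.45 ± 0.14 (adjusted p = 0.077). Tnr, Spock1, Spock3, Ccn6, Matn1 and Matn3 did not enter the test.

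Upstream of the members, 1 of 22 regulators of the TGF-beta, YAP and MRTF pathways rose and 0 fell, beside 3.57% and 7.99% of all genes. The median was 0.073. Yap1, the gene of YAP, had 0.13, 0.18, 0.42 and 0.49 in enalapril skin and −0.73, −0.57, −0.46 and −0.58 in vehicle skin. The groups lay apart by more than the range of either, and the rise was 0.89 ± 0.12 log2 (adjusted p = 0.011). It stayed between 0.83 and 0.95 with any 1 array left out, and the call held in all 8 such fits. Among other settings it was lost with the series matrix values (0.52, adjusted p = 0.27), E1A control centring (0.82, adjusted p = 0.094) and normexp (0.89, adjusted p = 0.39, or 0.90 and 0.18 with local backgrounds above 10 times the spot replaced), and with the replicate block (adjusted p = 0.058). Next by p came Tead3, a DNA-binding partner of YAP (0.60 ± 0.17, adjusted p = 0.056), the TGF-beta signal transducer Smad2 (0.30 ± 0.092, adjusted p = 0.070) and the transcription factor Srf (−0.36 ± 0.11, adjusted p = 0.075), none of them past the threshold.

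Of 22 other genes known as YAP, SRF or TGF-beta targets, 0 rose and 1 fell, beside 3.57% and 7.99% of all genes. The median was 0.16. Tagln, an actin-binding smooth muscle gene and SRF target, fell by 0.52 ± 0.10 (adjusted p = 0.024), and its other probe gave −0.16. The call was kept without enalapril replicate 4 or vehicle replicate 3 and lost without any one of the other 6 arrays (adjusted p up to 0.070). Not called were Lox, the collagen cross-linking enzyme (0.53 ± 0.15, adjusted p = 0.061), the adhesion protein gene Vcl (0.37 ± 0.12, adjusted p = 0.080) and Pmepa1, a TGF-beta target (0.38 ± 0.18, adjusted p = 0.20). Yap1 was thus called higher while its targets Ctgf and Cyr61 were not called in either direction, and the difference between these changes was not tested.

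**Figure D5:**
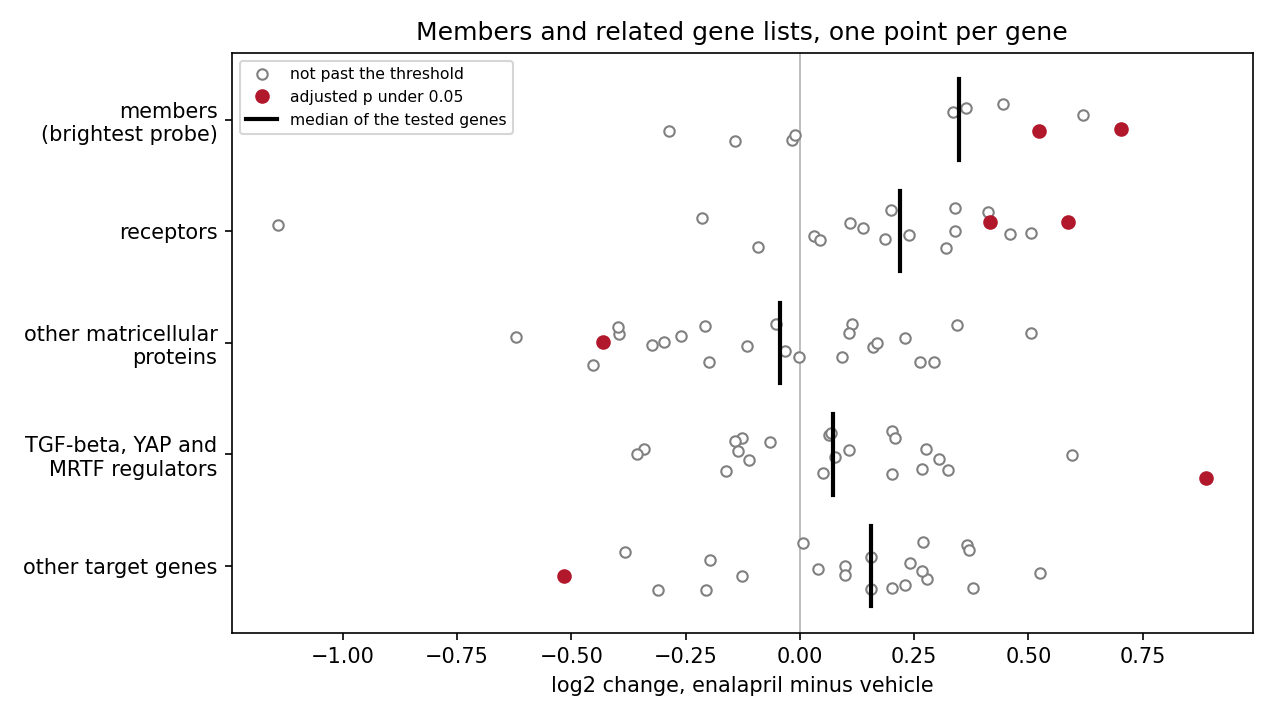
Log2 change, enalapril minus vehicle, for each gene of the members (brightest probe) and of the 4 related lists (filled points, adjusted p under 0.05; bars, medians of the tested genes). Medians are 0.35 for the members, 0.22 for receptors, −0.043 for other matricellular proteins, 0.073 for regulators and 0.16 for other targets, and the right-most filled point is Yap1 at 0.89.

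Cell type markers were read beside these changes, since in whole skin fewer cells of a type and less RNA per cell cannot be told apart. Over all genes by their brightest probe, 3.57% were called higher and 7.99% lower. Of 8 fibroblast markers 0 were called, with a median change of 0.062 and a mean level of 5.55 to 5.78 in enalapril arrays and 5.43 to 5.81 in vehicle arrays. Markers outside the naming rule are named here after their values were seen. For the 8 macrophage markers 1, Itgam, was called higher (0.58 ± 0.13, adjusted p = 0.032), while the median of the list was −0.13. Only 2 of the 8 had a positive change. Fcgr1 (−0.56, adjusted p = 0.069), Cd68 (−0.45, adjusted p = 0.21) and Cd163 (−0.43, adjusted p = 0.069) went the other way and were not called. Of 8 smooth muscle markers 2 fell, Tagln and Lmod1, and 3 had a positive change, with a list median of −0.26 and mean levels of 1.78 to 2.11 in enalapril arrays and 2.05 to 2.34 in vehicle arrays. Of 8 adipocyte markers 4 fell, Adipoq, Cidec, Pck1 and Slc2a4 (median −0.51, mean level 3.01 to 3.42 in enalapril arrays and 3.56 to 3.75 in vehicle arrays). Of 8 skeletal muscle markers 3 fell, Mylpf, Tnnt3 and Tnnc2, and 2 had a positive change, Myh4 (0.22) and Ttn (0.21), neither called. The median of that list was −0.68, with mean levels of 4.50 to 4.87 in enalapril arrays and 4.79 to 5.71 in vehicle arrays. All markers of these lists were well above background on all 8 arrays. The part of these tissues in the changes of the members was not tested.

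The median change of all tested probes was −0.05 as reported, −0.41 with the uncentred series matrix values, −0.12 when arrays were centred on E1A control spots and 0.27 with normexp background correction. Relative to that median, Fn1 probe 1 stood at 0.57, 0.57, 0.57 and 0.12, and Tnc probe 1 at 0.75, 0.75, 0.75 and 0.28, in the same order. The first 3 of these settings add a constant to each array and left the relative values as they were, while normexp changed them. Neither was called under the last 3 settings, where their own changes were 0.16, 0.45 and 0.39 for Fn1 probe 1 and 0.34, 0.63 and 0.55 for Tnc probe 1.

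The genes whose profiles over the 8 arrays were most like those of Fn1 and Tnc were sought among 15003 genes by the mean absolute difference of values centred on each gene's own mean. For Fn1 probe 1 these included Sgpp2 (0.063 log2), Gsk3a (0.065), Pccb (0.075) and Tspo2 (0.076), where the median gene was at 0.34 and a flat profile at 0.26. They encode a sphingosine phosphate phosphatase, a kinase, a mitochondrial carboxylase subunit and a translocator protein. For Tnc probe 1 they were Prss22 (0.057), Enah (0.085), Rasa2 (0.093), Hivep1 (0.097) and Rictor (0.10), with the median gene at 0.46 and a flat profile at 0.37. These encode a serine protease, an actin regulator, a Ras GTPase-activating protein, a zinc finger protein and a subunit of an mTOR complex. The Tnc-like genes shared the order of arrays within the enalapril group in which replicate 1 was the highest and replicate 4 the lowest, whereas for the Fn1-like genes named here replicate 1 was the lowest. Tnc probe 1 and Fn1 probe 1 had these same orders, so they follow from the choice by likeness and are no separate result.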

How the data were processed

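Members and lists were chosen with earlier results of these data known. Per the file headers, Agilent Feature Extraction 9.1.3.1 (9.1 in the submitters' processing notes) gave each spot a background-subtracted, detrended processed intensity, deposited to 3 significant digits and not scaled between arrays. Its 0 or 1 flags (well above background, outlier) are other values, deposited in the same files, and served as filters. Values in the deposited series matrix equal log2 of that intensity without centring, with array medians of 6.39 to 7.30. Further steps of the authors are not given in the sources used here.

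Each intensity was turned into log2 and set relative to the 75th percentile of the 43379 spots of its array that were not controls, flagged spots were dropped and spots of a probe averaged. Of 41174 probes, 47 had every spot flagged on some array, and 28580 well above background on at least 4 of 8 arrays were tested with limma 3.58.1 (R 4.3.3, with data.table version 1.17.8 and pandas 2.3.3), group as the only term, two-sided, Benjamini-Hochberg adjusted and tested on simulated data. Arrays had 67.1% to 72.7% of spots well above background, 75th percentiles of 821.5 to 1540 intensity units, and local backgrounds of 48 to 52 (enalapril) and 57.5 to 66 (vehicle). The number of arrays limits the precision. Probe names were updated through RefSeq (GRCm38.p6), 22944 by accession, 6664 by symbol and 3095 by synonym, with 2027 keeping the file's name and 6444 unnamed. The array files name no genome build. Every member probe is named, as are up to 4 genes with the smallest p per list and 5 like genes for Fn1 and Tnc, of which 1 is not reported here. The alternatives were other background corrections, scalings, filters, probe summaries, variance models, a replicate block and leaving out each array.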

Additional observations from a re-analysis of the deposited data

Results flagged for a closer look

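In 7 of 68 groups of 4 arrays examined for the members and the genes named in the lists, 1 array lay far from the other 3, by a gap over the whole range of the group above Dixon's critical value. Chance alone picks about 1 in 20 groups. Among the enalapril groups these were Thbs1 probe 1, with replicate 4 at −0.22 log2 below the rest (gap share 0.862), and Itgav, with replicate 1 at 0.51 above the rest (0.840). Among the vehicle groups, Thbs1 probe 1 had replicate 3 at 0.18 above the rest (0.913) and Tnc probe 3 had replicate 4 at −6.51 below (0.831). Thbs2 had replicate 1 at 2.42 below (0.837), Ctgf replicate 2 at 2.71 below (0.912) and Smad2 replicate 3 at 0.055 below (0.840).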

How the results depend on the processing

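The 2979 called probes and 2 called member probes depended on the setting. Median centring gave 1981 and 1, the uncentred series matrix values 1548 and 0, E1A control centring 280 and 0, no signal filter 1392 and 0, array weights 8534 and 7, and a threshold of 0.10 gave 5526 and 4. Normexp gave 0 and 0 by limma (3144 and 2 at an unadjusted p under 0.05), and 0 and 0 with local backgrounds above 10 times the spot replaced (4215 and 3). Averaging the probes of a gene called 0 members, and an intensity trend with robust estimation 4. With 1 array left out the counts ran from 396 to 6991 and from 0 to 6. The highest, 6991 and 6, came without enalapril replicate 4, where Tnc probe 3, both Postn probes and Thbs1 probe 1 joined the 2 calls. Without enalapril replicate 1 they were 738 and 2, here Fn1 probes 1 and 2, and without each of the other arrays 0 member probes were called. Fn1 probe 1 kept its call in 8 of 21 alternatives and Tnc probe 1 in 8 of 21, the change being positive in all of them, from 0.16 to 0.63 and from 0.34 to 0.84 (adjusted p 0.0055 to 0.74 and 0.0041 to 0.48).

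Same-numbered arrays deviated together only weakly, with correlations of −0.13, 0.077, 0.17 and 0.026 for replicates 1 to 4. The highest correlations with another number were 0.22, 0.072, −0.049 and 0.14. The numbers are positions on the slide, and with 4 arrays per group these values cannot tell whether the samples were paired. With the replicate block 38 probes and 0 member probes were called, with Fn1 probe 1 at adjusted p = 0.076, Tnc probe 1 at 0.10 and Yap1 at 0.058. Blocks for slide or scan could not be fitted.

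Direction turned for some values, none of them past the threshold after adjustment. With the series matrix values these were Ccn3 (−0.021), Itgav (−0.027), Itgb8 (−0.026), Smad2 (−0.061), Sparc probe 2 (−0.065), Spp1 (−0.030), Thbs1 probes 2 and 3 (−0.18 each), Thbs2 (−0.0027) and Tnc probe 2 (−0.077). With quantile normalization they were Ctgf (0.032), Sparc probe 1 (0.17) and Tgfbi (0.23), and Tgfbi also turned with local backgrounds above 2 times the spot replaced (0.021). Normexp turned Fn1 probe 3 (0.52, and 0.39 with local backgrounds above 10 times the spot replaced). Among differences of probes, normexp turned Fn1 probes 1 and 3 (−0.14), Thbs1 probes 1 and 2 (−0.13), Thbs1 probes 1 and 3 (−0.25, and −0.082 with the replacement at 10 times) and Tnc probes 1 and 2 (−0.27, and −0.090), while the replacement at 2 times turned Tnc probes 1 and 3 (0.24). With 1 array left out, changes ran from −0.31 to 0.059 for Ctgf, from −0.11 to 0.094 for Sparc probe 1, from −0.074 to 0.027 for Tgfbi, from −0.015 to 0.48 for Thbs1 probe 2, from −0.046 to 0.48 for Thbs1 probe 3 and from −0.032 to 0.54 for Tnc probe 2. The differences ran from −0.68 to 0.11 for the Postn probes and from −0.032 to 0.045 for Thbs1 probes 2 and 3. The cause was not tested. Dim probes, with mean log2 levels near −4 to −6, limit what Fn1 probe 3, Tnc probes 2 and 3, Thbs1 probes 2 and 3 and Postn probe 2 can show.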
